A study of Homo sapiens with 24 samples.

Results

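Tubulin is the heterodimer of one alpha and one beta subunit from which microtubules are built, and human cells carry several genes for each subunit, called isotypes. The isotype genes code for closely similar proteins that differ mainly at the carboxy-terminal tail, and cells use them in tissue-specific proportions. TUBB2A, TUBB2B, TUBB3, TUBB4A and TUBA1A are best known from neurons, TUBB4B is abundant in ciliated cells, and TUBB, TUBA1B and TUBA1C are used widely by dividing cells. Tubulin mRNA is also subject to autoregulation: when free dimers accumulate, the factor TTC5 recognises the start of the nascent tubulin chain on the ribosome and the mRNA is degraded.

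The 10 tubulin genes described here are the alpha genes TUBA1A, TUBA1B, TUBA1C and TUBA4A and the beta genes TUBB, TUBB2A, TUBB2B, TUBB3, TUBB4B and TUBB6. They were chosen by gene name and matched 11 of the 57820 rows in the count tables. TUBB3 had 2 rows, ENSG00000258947.2, with a mean of 575 counts per library, and ENSG00000198211.8, a read-through model with 2 counts in all 24 libraries. The first was used, and all 10 genes passed the filter on low counts in every comparison.

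RNA-seq had been performed on 24 libraries, 3 biological replicates in each of 8 groups, all of human U2OS osteosarcoma cells. WT and ID3-KO AID-DIvA cells were either untreated or exposed to mocetinostat for 24 h and then left without drug for 24 h. AID-DIvA is a U2OS line with an integrated vector for the restriction enzyme AsiSI, which cuts the genome only when 4-hydroxytamoxifen brings it into the nucleus, and the labels name no such induction for these libraries. WT and ID3-KO U2OS cells were either untreated or exposed to mocetinostat for 24 h and collected without recovery, a stage inferred from the series description and the methods. Mocetinostat inhibits class I histone deacetylases, enzymes that remove acetyl groups from histones, and ID3 is an inhibitor of basic helix-loop-helix transcription factors. No dose is given for these libraries, and the sources used here do not say whether each ID3-KO line is a single clone. For the 12 AID-DIvA libraries the sample titles and the treatment entries are the reverse of each other, and groups follow the titles. Under the treatment entries every AID-DIvA response given here would have the opposite sign. The AID-DIvA libraries called untreated would then be the treated and recovered ones. Their levels, shares and ID3 counts, and the genotype difference named untreated, would belong to that stage. The differences between the AID-DIvA and U2OS responses would have other sizes. Under the titles MAPT, which codes for tau, was higher by 1.24 in WT and 1.94 in ID3-KO AID-DIvA cells on the log2 scale, the direction it had in U2OS cells (4.24 and 4.12), and STMN2 was likewise higher in both experiments. Other genes that were higher in treated U2OS cells went the other way under the titles. TUBB2A was at 1.12 and 1.003 in WT and ID3-KO U2OS cells and at -0.52 and -0.54 in AID-DIvA cells. TTLL7, a tubulin modifying enzyme, was also higher in U2OS and lower in AID-DIvA cells. Groups were not assigned from these values. Recovery and the AID-DIvA line always occurred together, so that stage and line cannot be told apart.

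Total counts lay between 37878751 and 76906266 per library. ID3 counts ran from 1941 to 2344 in untreated ID3-KO and from 2371 to 3284 in untreated WT AID-DIvA cells, and from 1642 to 1789 and from 2750 to 5211 in U2OS cells. ID3 mRNA was thus lower but still present in the knockout lines, with log2 differences of -0.56 and -1.03. The U2OS difference was -0.80 without the first WT untreated library, which is described below. These counts do not measure ID3 protein, for which the authors report a Western blot check of the knockout. Of 8 bone or mesenchymal markers, 7 had a mean of at least 1 CPM (counts scaled to 1 common library size), COL1A1 at 1479 and the exception COL1A2 at 0.521. The 2 blood markers were below 1, and of the 2 epithelial markers EPCAM was at 7.18 and CDH1 at 0.702. The first U2OS WT untreated library stood apart from its replicates, with a chi-square per gene of 103 and 91.1 against replicates 2 and 3, and 4.32 between replicates 2 and 3. In the other 7 groups the highest such value was 27.3. Many of the calls, shares and sums that rest on it are given with and without it, and so are some of the list genes. Other values that use untreated WT U2OS cells include this library. Of the levels in untreated WT U2OS cells without it, TUBB was at 894, TUBA1B at 569.5 and TUBB4B at 366 CPM per kb (reverse strand, 2 libraries).

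The coding sequences show how alike these genes are, and their first bases differ between the subunits. In each line the first 12 of 30 bases, from the start codon, are in capitals; they code for the start of the chain that autoregulation reads. They were read from GENCODE v44 transcripts on GRCh37.
TUBA1A: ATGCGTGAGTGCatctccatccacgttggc
TUBA1B: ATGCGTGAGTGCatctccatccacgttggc
TUBA4A: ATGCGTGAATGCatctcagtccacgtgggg
TUBB: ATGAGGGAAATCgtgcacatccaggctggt
TUBB2A: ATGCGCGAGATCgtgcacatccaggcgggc
TUBB2B: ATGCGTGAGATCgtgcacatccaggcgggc
TUBA1A, TUBA1B and TUBA1C shared all 30 bases, so TUBA1A and TUBA1B stand for the set. TUBB2B shared the first 9 bases with TUBA1A, TUBA1B and TUBA1C, and the last codon in capitals, TGC in alpha and ATC in beta genes, separated the subunits in all 10 genes. TUBB2A and TUBB2B differed from each other within the capitals.

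Over whole coding sequences, TUBB2A and TUBB2B were 98.2% identical, TUBA1A and TUBA1B 97.2%, and TUBA1B and TUBA1C 96.8%. Pairs of alpha genes shared from 84.4% to 97.2% of bases, pairs of beta genes from 80.9% to 98.2%, and alpha with beta genes from 51.4% to 54.2%. How reads that match several genes were treated is not given in the sources used here, so the split of reads within the nearest pairs is uncertain.

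Several members also overlap neighbouring annotation. The alpha genes TUBA1B (chr12:49521565-49525180), TUBA1A (chr12:49578579-49583107) and TUBA1C (chr12:49582519-49667114) lie together, as do TUBB2A (chr6:3153903-3157760) and TUBB2B (chr6:3224495-3231964), all in GRCh37. TUBB lies at chr6:30687978-30693203, TUBB3 at chr16:89987800-90005169, TUBB4B at chr9:140135665-140138159, TUBA4A at chr2:220114433-220142892 and TUBB6 at chr18:12307668-12344319. Exons of an antisense gene, RP11-386G11.10, cover 68.1% of the coding bases of TUBA1B. Antisense exons cover 41.4% of those of TUBA1C and 40.4% of those of TUBB, from RP11-161H23.5 and XXbac-BPG252P9.9.

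The deposited tables give counts from either strand and counts by strand. Reverse-strand counts were 3.10 times the either-strand counts for TUBA1B, 1.96 times for TUBA1C and 1.49 times for TUBB. For the other 7 genes the ratio lay between 0.954 and 1.06. For TUBB3, 95.8% of coding bases (1293 of 1350) are shared with same-strand exons of the read-through model, which itself received 2 counts in all 24 libraries. How reads in that shared stretch were counted is not given, so the low level of TUBB3 is uncertain under either strand rule. Tests use the either-strand counts, and levels compared between genes are given from the reverse strand.

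**Figure D1:**
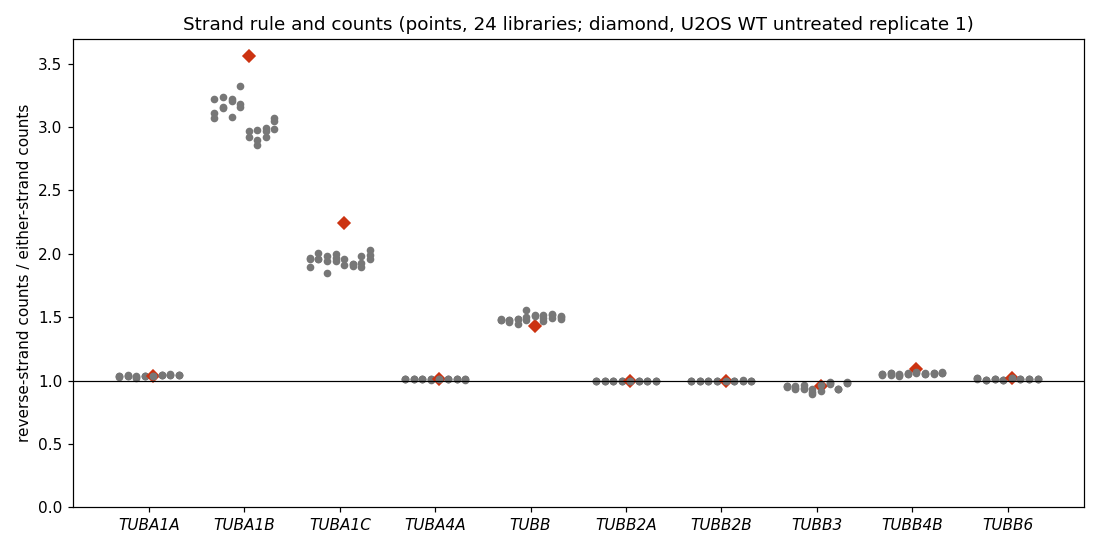
Reverse-strand counts divided by either-strand counts (vertical axis, no unit) for each gene, 1 point per library. TUBA1B, TUBA1C and TUBB lie above 1 in all 24 libraries, and the U2OS WT untreated replicate 1 (diamond) has the highest ratio for TUBA1B (3.56) and TUBA1C (2.24) and the lowest for TUBB (1.43).

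Levels between genes were compared as CPM per kilobase of exon (CPM per kb), with TMM scaling over all 24 libraries. TUBB, the main beta-tubulin of most dividing cells, was highest, at 1162 ± 9.79 (SD, n = 3, reverse strand) in untreated WT AID-DIvA and 916 ± 39.1 in untreated WT U2OS cells. TUBA1B followed at 742 ± 12.1 and 609 ± 71.0, then TUBB4B at 478 ± 8.67 and 408 ± 72.6, and TUBA1C at 321 ± 9.99 and 251 ± 37.6. TUBB6 (67.6 ± 1.004 and 56.8 ± 8.17), TUBA1A (55.0 ± 5.14 and 92.7 ± 8.81), TUBB2B (43.7 ± 0.728 and 44.1 ± 4.78), TUBA4A (23.8 ± 0.735 and 22.5 ± 4.53) and TUBB2A (10.6 ± 0.0494 and 9.34 ± 0.931) were lower. TUBB3, a beta-tubulin used as a neuronal marker, was last at 1.72 ± 0.0475 and 1.75 ± 0.136.

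TUBB6 and TUBA1A changed places between the lines: TUBB6 was above TUBA1A in untreated WT AID-DIvA and below it in untreated WT U2OS cells. Over 24 libraries the order by either-strand counts placed TUBB4B above TUBA1B, and the reverse strand swapped them. No other gene changed rank, and the authors' TPM gave the either-strand order for all 10.

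The treatment comparisons ask how WT and ID3-KO cells respond to class I HDAC inhibition and how they look after recovery. Each used its own 6 libraries. A gene was called where edgeR's quasi-likelihood p, adjusted over all tested genes by the Benjamini-Hochberg method, was below 0.05, and changes are log2 ± SE.

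In WT U2OS cells collected directly after mocetinostat, 4 of the 10 genes were called higher and 2 lower, against 26% of 21797 genes called higher and 22.9% called lower (48.9% in either direction). The median change of the 10 genes was 0.036, and that of all genes 0.0058. In ID3-KO U2OS cells 4 were higher and 4 lower, against 35.8% and 34% of all genes (69.9% in either direction), with a median of -0.061 and a median over all genes of 0.00086. The shares of members called were thus near the background in both lines. Only TUBB2A passed 1 on the log2 scale, upwards in both lines, against 13.6% of all genes higher and 5.06% lower beyond 1 in WT and 14.6% and 5.77% in ID3-KO cells.

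TUBB2A, a beta isotype abundant in brain, had the largest rise of the 10 genes in both U2OS lines. Its level in WT cells was 18.6, 15.3 and 15.8 CPM in the untreated and 33.6, 35.03 and 39.7 CPM in the treated libraries. In ID3-KO cells it was 21.4, 19.2 and 17.4 CPM before and 45.2, 35.5 and 35.3 CPM after treatment. The groups did not overlap in either line. The rise was 1.12 ± 0.11 (adjusted p = 0.00011) in WT and 1.003 ± 0.09 (adjusted p = 1.2e-07) in ID3-KO cells.

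TUBB2B, its nearly identical neighbour on chromosome 6, which is prominent in developing neurons, rose as well. It read 112, 90.4 and 95.6 CPM in untreated and 165, 169 and 172 CPM in treated WT cells. The ID3-KO libraries read 122, 114 and 117 CPM before and 192, 162 and 181 CPM after treatment, again without overlap. The changes were 0.76 ± 0.10 (adjusted p = 0.00045) and 0.60 ± 0.05 (adjusted p = 7.2e-10).

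Among the alpha genes, TUBA1A, the main alpha isotype of neurons, rose from 349.9, 300.1 and 291 CPM to 434, 447 and 454 CPM in WT cells. In ID3-KO cells it began lower, at 211, 209 and 219 CPM, and reached 408, 409 and 437 CPM. Treated libraries were above all untreated ones in both lines. The change was 0.50 ± 0.09 (adjusted p = 0.0027) in WT and 0.98 ± 0.04 (adjusted p = 5.3e-15) in ID3-KO cells.

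TUBA4A, an alpha isotype whose gene does not code for the final tyrosine that other alpha genes encode, rose in WT cells from 115, 83.1 and 81.1 CPM to 143, 147 and 154 CPM. The ID3-KO libraries went from 92.2, 89.2 and 92.8 CPM to 145, 127 and 139 CPM. No treated library reached down to an untreated one. The changes were 0.66 ± 0.14 (adjusted p = 0.0061) and 0.59 ± 0.05 (adjusted p = 2.9e-10).

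The most abundant beta gene moved the other way. TUBB fell in WT cells from 2327, 2021 and 2041 CPM to 1308, 1283 and 1371 CPM. In ID3-KO cells it fell from 2361, 2401 and 2423 CPM to 1354, 1310.5 and 1351 CPM. Every treated library was far below every untreated one, with changes of -0.69 ± 0.09 (adjusted p = 0.00038) and -0.84 ± 0.04 (adjusted p = 5.3e-14).

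The most abundant alpha gene, TUBA1B, fell too. WT libraries read 713, 736 and 679 CPM untreated and 532, 511 and 529 CPM treated. ID3-KO libraries read 881, 836 and 858 CPM untreated and 557, 531 and 577 CPM treated. The groups were separate in both lines, and the changes were -0.44 ± 0.07 (adjusted p = 0.0014) and -0.63 ± 0.04 (adjusted p = 1.8e-11).

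TUBA1C, another widely used alpha gene, fell in ID3-KO cells only by the call. Untreated ID3-KO libraries were at 487, 452 and 488 CPM and treated ones at 352, 331 and 362 CPM, a change of -0.45 ± 0.05 (adjusted p = 1.1e-08). In WT cells 454, 423 and 391 CPM stood against 377, 378 and 393 CPM, which overlap, and the change of -0.15 ± 0.08 was not called (adjusted p = 0.17).

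TUBB3 fell in ID3-KO cells, from 12.2, 12.03 and 11.2 CPM to 8.95, 8.52 and 9.04 CPM (-0.41 ± 0.07, adjusted p = 1.7e-05). In WT cells it had 12.6, 11.2 and 11.2 CPM untreated and 10.1, 11.9 and 11.8 CPM treated, with overlap (-0.05 ± 0.10, adjusted p = 0.72). These values carry the limit on its coding bases given above. TUBB4B and TUBB6 were not called in either line, with values between -0.06 and 0.05.

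Without the first WT untreated U2OS library, 9 genes were called in WT cells, 6 higher and 3 lower, against 33.9% and 32.5% of all genes in that fit. TUBB4B was then at 0.20 (adjusted p = 3.6e-07), TUBB6 at 0.15 (adjusted p = 0.00012) and TUBA1C at -0.09 (adjusted p = 0.017). The 6 genes called with all libraries had the same direction without it, TUBB2A at 1.21, TUBA4A at 0.84 and TUBB at -0.62.

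**Figure D2:**
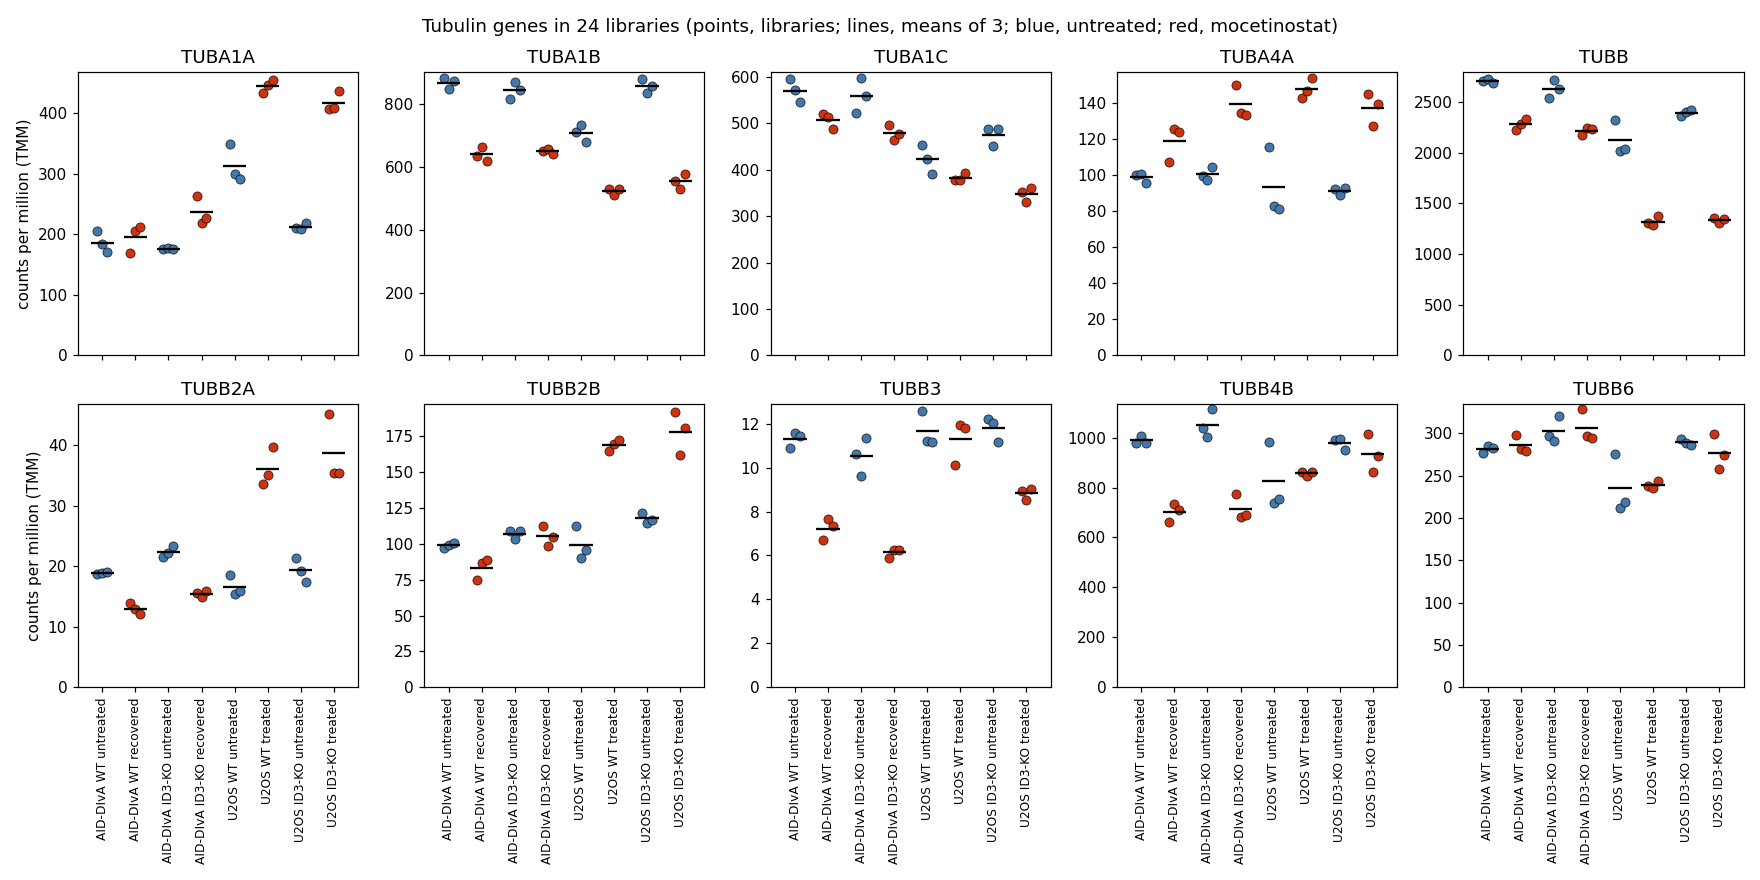
CPM (vertical axes, from 0) of the 10 tubulin genes in all 24 libraries, with points for libraries and lines for the means of 3, untreated in blue and mocetinostat in red. TUBB2A, TUBB2B, TUBA1A and TUBA4A sit higher, and TUBB and TUBA1B lower, in treated U2OS libraries than in untreated ones.

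In AID-DIvA cells whose titles give recovery from the inhibitor, 1 gene was higher and 7 lower in WT cells, against 23.9% and 23% of 20289 genes (46.9% in either direction). In ID3-KO cells 2 were higher and 6 lower, against 20.2% and 19.9% of 20362 genes (40.1% in either direction). The median changes of the 10 genes were -0.22 and -0.24, with -0.0005 and -0.023 over all genes. No member passed 1 on the log2 scale, against 4.86% of all genes higher and 2.52% lower beyond 1 in WT and 4.9% and 2.56% in ID3-KO cells.

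TUBB3 had the largest fall of the 10 genes after recovery, under the limit on its coding bases given above. WT libraries read 10.9, 11.6 and 11.5 CPM untreated and 6.69, 7.64 and 7.32 CPM recovered. ID3-KO libraries read 10.6, 9.60 and 11.4 CPM untreated and 5.89, 6.27 and 6.27 CPM recovered. The groups were separate, with changes of -0.63 ± 0.08 (adjusted p = 1.7e-05) and -0.77 ± 0.10 (adjusted p = 0.00021).

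TUBB2A, which was higher directly after treatment in U2OS cells, was lower after recovery in AID-DIvA cells. It read 18.7, 18.8 and 19.0 CPM in untreated and 13.9, 12.9 and 12.1 CPM in recovered WT cells. In ID3-KO cells 21.4, 22.2 and 23.3 CPM stood against 15.5, 14.9 and 15.8 CPM. Recovered libraries were below all untreated ones, and the changes were -0.52 ± 0.06 (adjusted p = 2.2e-05) and -0.54 ± 0.07 (adjusted p = 0.00036).

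TUBB2B fell less in WT cells, from 96.9, 98.997 and 101 CPM to 74.6, 86.7 and 88.5 CPM (-0.23 ± 0.06, adjusted p = 0.0086). In ID3-KO cells 109, 103 and 109 CPM overlapped with 112, 98.6 and 105 CPM, and -0.03 ± 0.06 was not called (adjusted p = 0.76).

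TUBB4B, the second most abundant beta gene, fell in both lines after recovery. WT libraries went from 980.4, 1008 and 979 CPM to 664, 735 and 708 CPM. ID3-KO libraries went from 1037, 1003 and 1114 CPM to 775, 681 and 689 CPM. No recovered library reached the untreated range, and the changes were -0.47 ± 0.05 (adjusted p = 2.3e-06) and -0.56 ± 0.07 (adjusted p = 0.00015).

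The main genes TUBA1B, TUBB and TUBA1C were below untreated levels. TUBA1B changed by -0.42 ± 0.04 in WT (adjusted p = 2.5e-06; 885, 850.4 and 873 CPM against 637, 664 and 621 CPM) and by -0.38 ± 0.05 in ID3-KO cells (adjusted p = 0.00038). TUBB changed by -0.22 ± 0.04 (adjusted p = 0.00025; 2707, 2725 and 2690.2 CPM against 2227, 2287 and 2335 CPM) and -0.25 ± 0.05 (adjusted p = 0.0061). For TUBA1C the falls were the smallest called, -0.15 ± 0.04 (adjusted p = 0.014) and -0.23 ± 0.06 (adjusted p = 0.013), and leaving out 1 library ended the call in 3 of 6 cases in each line.

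TUBA4A was the only gene called higher in both AID-DIvA lines. It read 99.9, 101 and 95.5 CPM in untreated and 107, 126 and 124 CPM in recovered WT cells (0.29 ± 0.06, adjusted p = 0.0015). In ID3-KO cells it went from 99.3, 97.4 and 105 CPM to 149.9, 135 and 133 CPM (0.47 ± 0.07, adjusted p = 0.00041). TUBA1A was higher in recovered ID3-KO cells, at 264, 219 and 227 CPM against 176, 178 and 175 CPM (0.42 ± 0.07, adjusted p = 0.00088). In WT cells its values of 206, 184 and 171 CPM untreated and 169, 206 and 212 CPM recovered overlapped (0.09 ± 0.09, adjusted p = 0.46). TUBB6 was not called in either line.

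**Figure D3:**
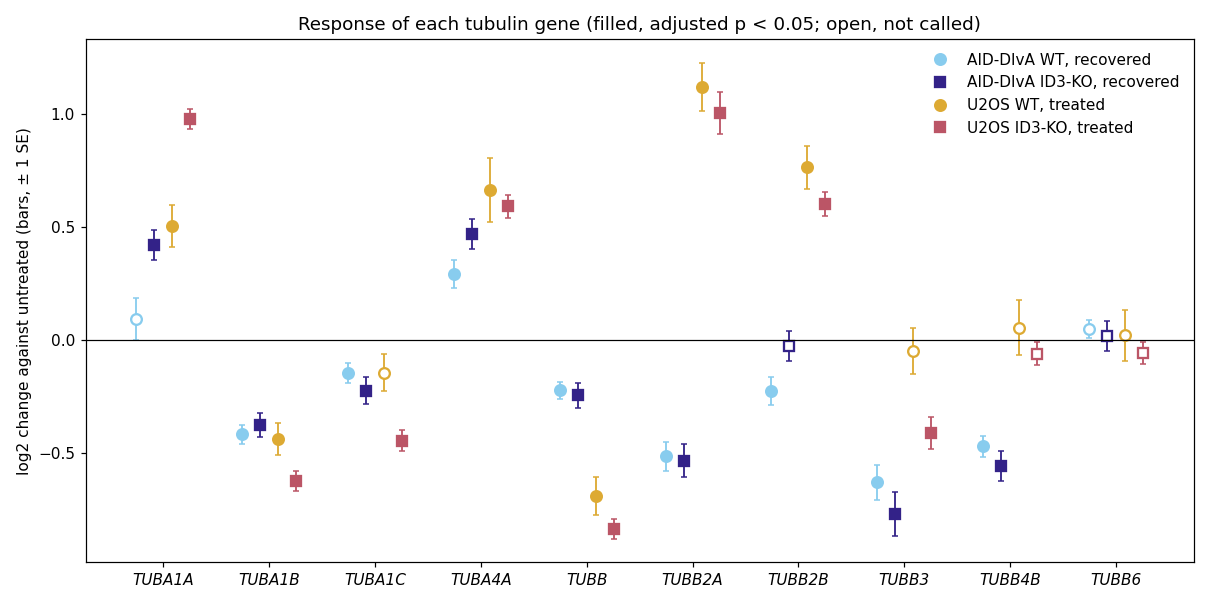
Log2 change against untreated cells (vertical axis, bars ± 1 SE) for each tubulin gene in the 4 treatment comparisons, filled where the adjusted p was below 0.05. TUBB2A is above 0 in both U2OS lines (1.12 and 1.003) and below 0 in both recovered AID-DIvA lines (-0.52 and -0.54), while TUBB and TUBA1B are below 0 in all 4.

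The difference between the AID-DIvA and U2OS responses was tested directly over all 24 libraries, as the AID-DIvA change minus the U2OS change. In WT cells 1 gene was higher and 6 lower, against 22.6% and 22.8% of 23087 genes (45.4% in either direction). In ID3-KO cells 3 were higher and 5 lower, against 21.7% and 24.3% (46% in either direction). TUBB2A differed most, by -1.63 ± 0.14 (adjusted p = 2.4e-10) in WT and -1.53 ± 0.13 (adjusted p = 6.2e-10) in ID3-KO cells, followed by TUBB2B at -0.99 ± 0.11 and -0.62 ± 0.11. TUBB differed in the other direction, by 0.47 ± 0.08 and 0.60 ± 0.08, since its fall was smaller after recovery. TUBB4B differed by -0.52 ± 0.12 and -0.49 ± 0.12, and TUBB3 by -0.58 ± 0.12 and -0.35 ± 0.12. Without the first WT untreated U2OS library the WT difference was -1.72 for TUBB2A, -1.08 for TUBB2B and 0.41 for TUBB. For TUBA4A it was -0.37 ± 0.13 (adjusted p = 0.026) with and -0.55 (adjusted p = 8.3e-06) without that library, and the call was lost in 5 other fits that left out 1 library. The 2 comparisons differ in both stage and cell line, and which of them goes with the difference cannot be told apart.

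The genotype comparisons ask whether loss of ID3 goes with other tubulin levels. In untreated AID-DIvA cells 1 of 10 genes was called, against 36.7% of 20441 genes (18.6% higher, 18.1% lower). TUBB2A was higher in ID3-KO cells by 0.23 ± 0.06 (adjusted p = 0.005), at 21.4, 22.2 and 23.3 CPM against 18.7, 18.8 and 19.0 CPM. In untreated U2OS cells 1 was called higher and 1 lower, against 6.56% and 8.63% of 20621 genes (15.2% in either direction). TUBA1A was lower in ID3-KO cells by a log2 difference of -0.57 ± 0.09 (adjusted p = 0.0059), and TUBA1B was higher by 0.27 ± 0.07 (adjusted p = 0.04).

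TUBA1A was also lower in ID3-KO U2OS cells without the first WT untreated library, by -0.48 (adjusted p = 6.9e-15). Without that library 9 genes were called, 8 higher in ID3-KO cells and TUBA1A lower, against 20.5% and 20.6% of all genes in that fit, with TUBB6 at 0.42, TUBB4B at 0.39 and TUBB2B at 0.34. The call for TUBA1B was lost with reverse-strand counts (0.19, adjusted p = 0.22) and with 5 of the 6 libraries left out in turn. The U2OS genotype difference of most members therefore turned on 1 library.

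The genotype by treatment interaction asks whether the response differs with ID3. In AID-DIvA cells edgeR's quasi-likelihood test called none of the 10 genes, and DESeq2 0, against 1.21% of 21265 genes (0.762% higher, 0.451% lower), and 2 had an unadjusted p below 0.05 (TUBA1A and TUBB2B). With no filter on low counts TUBA1A was called, at 0.35 (adjusted p = 0.0087). In U2OS cells only TUBA1A was called, against 2.15% of 22647 genes (1.1% higher, 1.06% lower), with a response 0.48 ± 0.10 higher in ID3-KO than in WT cells (adjusted p = 0.026). Its treated levels in the 2 lines lay close together, between 434 and 454 CPM in WT and between 408 and 437 CPM in ID3-KO cells, and its untreated levels lay apart. Leaving out 1 of the WT treated or ID3-KO libraries ended the call in each of 9 cases, with estimates between 0.44 and 0.50. Without the first WT untreated library 9 genes were called, against 9.03% of all genes in that fit, TUBA1A higher at 0.39 and 8 lower, from -0.19 for TUBA1B to -0.42 for TUBB3.

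The composition within the alpha and beta genes followed above was described from reverse-strand CPM per kb, with no test. Other tubulin genes were left out of every share and sum, so these are not shares of all alpha or beta mRNA. Of those left out, the alpha gene TUBA3C was at 274 CPM untreated and 207 CPM treated in WT U2OS cells. In ID3-KO U2OS cells it was at 330 and 249 CPM. The beta gene TUBB4A was at 26.0 CPM untreated and 64.2 CPM treated in WT U2OS cells. In WT U2OS cells TUBB made up 63.9% ± 2.74 (SD, n = 3) of the summed beta genes untreated and 50.0% ± 0.245 treated. In ID3-KO U2OS cells the share went from 63.2% ± 0.514 to 48.2% ± 1.60. The share of TUBB4B went from 28.3% to 36.6% in WT and from 28.7% to 37.9% in ID3-KO cells. Its own change was not called in either line with all libraries, but was called higher in WT cells without the first WT untreated library (log2 change 0.20). TUBB2B went from 3.06% to 6.54% and TUBB2A from 0.649% to 1.78% in WT cells, and to 6.52% and 1.80% in ID3-KO cells.

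After recovery in AID-DIvA cells the shares of TUBB and TUBB4B moved the other way. TUBB was at 65.9% untreated and 68.2% recovered in WT and at 63.7% and 67.1% in ID3-KO cells, and TUBB4B went from 27.1% to 23.9% and from 28.7% to 23.97%. The share of TUBB2B was 2.48% and 2.58% in WT and 2.69% and 3.22% in ID3-KO AID-DIvA cells, and the alpha share of TUBA1A was 4.81% and 6.22%, and 4.63% and 7.35%, which is higher after recovery, as after treatment in U2OS cells. Among the summed alpha genes of U2OS cells, TUBA1B went from 62.5% to 52.2% in WT and from 66.3% to 56.1% in ID3-KO cells. TUBA1A went from 9.53% to 16.6% and from 6.07% to 15.2%. Without the first WT untreated U2OS library the untreated WT shares were 65.5% for TUBB, 26.9% for TUBB4B, 62.8% for TUBA1B and 9.68% for TUBA1A.

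The summed levels of these alpha and beta genes were lower with mocetinostat in all 4 pairs of groups. The summed beta level went from 1437 ± 126 to 1143 ± 15.6 CPM per kb in WT and from 1666 ± 14.1 to 1207 ± 60.9 in ID3-KO U2OS cells, and from 1764 ± 15.4 to 1430.1 ± 40.5 and from 1766 ± 42.8 to 1445 ± 38.5 in AID-DIvA cells. In untreated WT U2OS cells the beta sum was 1581 in replicate 1 against 1352 and 1377 in the others, and 1364 without it. The summed alpha level went from 975 ± 122 to 795 ± 19.7 and from 1046 ± 23.2 to 816 ± 36.4 in U2OS cells, and in untreated WT U2OS cells it was 1112 in replicate 1 against 933 and 879 in the others, and 906 without it. It went from 1141 ± 27.4 to 933 ± 21.7 and from 1121 ± 56.0 to 946 ± 14.6 in AID-DIvA cells. A lower level per cell and fewer cells with a high level cannot be told apart in bulk RNA, nor can a changed mRNA output, since counts are relative to the library.

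**Figure D4:**
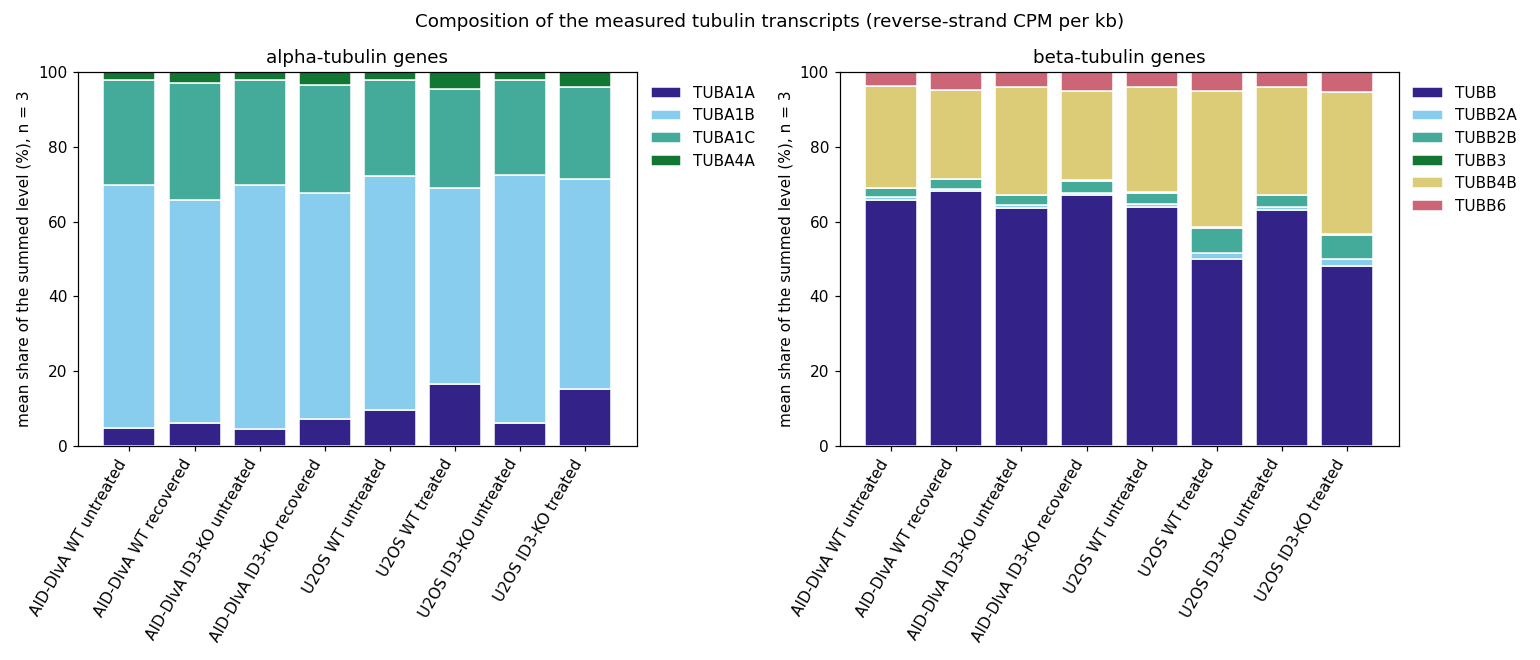
Mean share (%, n = 3) of each gene in the summed reverse-strand CPM per kb of the 4 alpha genes (left) and the 6 beta genes (right) in the 8 groups. TUBB takes 63.2% to 65.9% of the beta sum in untreated groups, 50.0% and 48.2% in treated U2OS groups, and 68.2% and 67.1% in recovered AID-DIvA groups.

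The promoters of the pair that rose together in U2OS cells, TUBB2A and TUBB2B, and of TUBA1B, which fell, are shown for the sequence around the start of members that moved together and apart. Each line holds 300 bases, most of them before the start that RefSeq lists, 5′ to 3′ on the strand of the gene, in GRCh38.p14: chr6:3157495-3157794 (minus strand) for TUBB2A, chr6:3227604-3227903 (minus strand) for TUBB2B and chr12:49131346-49131645 (minus strand) for TUBA1B. Capitals mark, on either strand, the letters of the CCAAT box (CCAAT), the GC box (GGGCGG), the TATA box (TATAAA) and the cyclic AMP response element (TGACGTCA).
TUBB2A: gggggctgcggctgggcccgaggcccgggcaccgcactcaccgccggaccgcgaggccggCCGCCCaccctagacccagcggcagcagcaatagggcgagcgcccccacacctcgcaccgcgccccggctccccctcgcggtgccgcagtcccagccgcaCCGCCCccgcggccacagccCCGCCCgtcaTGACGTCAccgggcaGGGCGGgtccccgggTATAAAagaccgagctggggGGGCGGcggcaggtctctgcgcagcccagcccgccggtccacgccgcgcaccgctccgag
TUBB2B: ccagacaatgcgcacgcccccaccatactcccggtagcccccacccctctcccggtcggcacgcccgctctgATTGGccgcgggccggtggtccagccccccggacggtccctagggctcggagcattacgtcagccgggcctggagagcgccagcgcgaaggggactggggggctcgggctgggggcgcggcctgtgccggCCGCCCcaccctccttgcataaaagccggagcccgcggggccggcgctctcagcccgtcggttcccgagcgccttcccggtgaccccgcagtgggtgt
TUBA1B: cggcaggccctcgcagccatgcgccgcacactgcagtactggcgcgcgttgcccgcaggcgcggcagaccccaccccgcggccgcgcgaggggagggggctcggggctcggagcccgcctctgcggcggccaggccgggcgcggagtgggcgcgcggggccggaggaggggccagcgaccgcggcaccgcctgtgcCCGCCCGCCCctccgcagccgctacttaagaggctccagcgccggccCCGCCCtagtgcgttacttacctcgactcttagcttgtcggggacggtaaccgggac
TUBB2A held 5 matches to the GC box, 1 to the TATA box and 1 to the cyclic AMP response element. TUBB2B held 1 match to the CCAAT box and 1 to the GC box, and TUBA1B held 3 to the GC box. Copies that overlap each other were each counted. Of 35116 RefSeq promoter windows of this length, 34.6% held a match to the CCAAT box, 45.0% to the GC box, 11.5% to the TATA box and 1.85% to the cyclic AMP response element. The GC content was 79.0%, 74.7% and 77.0%.

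The pattern of the members across the 8 group means was described by Pearson's r of log2(CPM + 1), without a test, since the groups share line and stage. TUBB2A and TUBB2B were most alike among members (r = 0.96), followed by TUBA1C with TUBB (0.93) and TUBA1B with TUBB (0.90). TUBA1A ran against TUBA1C (-0.96) and TUBB (-0.95). Over 15583 other genes, the most alike was NRF1 for TUBB (r = 0.998), FREM2 for TUBB2B (0.998), TRIM54 for TUBA4A (0.994), MED23 for TUBA1C (0.992), MAD2L2 for TUBA1A (0.991), KDM3B for TUBA1B and TDRKH for TUBB2A (both 0.990), CLSPN for TUBB6 (0.983), ZNF100 for TUBB4B (0.979) and RAB15 for TUBB3 (0.974). With 8 points and this many genes searched, the values say nothing of shared control.

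Other genes of the microtubule system were described from lists. The shares of all genes called higher and lower, to be read beside each count, were 26% and 22.9% in WT and 35.8% and 34% in ID3-KO U2OS cells, and 23.9% and 23% in WT and 20.2% and 19.9% in ID3-KO AID-DIvA cells. Of the 13 other tubulin genes, 11 were tested in U2OS cells, with 2 higher and 2 lower in WT and 4 higher and 3 lower in ID3-KO cells. Without the first WT untreated library 5 were higher and 4 lower in WT, against 33.9% and 32.5% of all genes in that fit. In recovered AID-DIvA cells 10 were tested, with 1 higher and 3 lower in WT and 0 and 2 in ID3-KO cells. TUBB4A, the beta isotype of myelinating cells and axons, rose from 26.0 to 64.2 CPM in WT (1.304 ± 0.09, adjusted p = 1.9e-05) and from 22.0 to 54.5 CPM in ID3-KO cells (1.31 ± 0.07, adjusted p = 1e-13). After recovery it was at -0.08 and 0.15, neither called. TUBA3C, an alpha gene named here after its level was seen, had a mean of 268 CPM and fell by 0.41 in both U2OS lines (adjusted p = 0.04 and 5.3e-08). Without the first WT untreated library its WT fall was 0.23. Neither TUBA3C nor TUBB4A is part of the shares and sums given above. TUBA3E fell as well, from a mean of 4.30 to 2.56 CPM in WT U2OS cells (adjusted p = 0.023, or a change of -0.52 without that library). It fell by 0.42 in ID3-KO U2OS cells, and by 1.05 and 0.80 in recovered WT and ID3-KO AID-DIvA cells. TUBA3D, near 1 CPM, fell by 0.72 in ID3-KO U2OS cells (adjusted p = 0.0034) and was at -0.58 in WT (adjusted p = 0.066), or -0.74 (adjusted p = 0.0012) without that library.

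Of 24 folding and degradation factors for tubulin, 2 were higher and 5 lower in WT and 8 higher and 8 lower in ID3-KO U2OS cells, while 14 were higher and 3 lower in recovered WT and 5 and 2 in recovered ID3-KO AID-DIvA cells. The genotype by treatment interaction in AID-DIvA cells called 0 of the 24, against 1.21% of all genes. Their median changes after recovery were 0.14 in WT and 0.099 in ID3-KO cells. The ID3-KO U2OS counts are near the shares over all genes, and without the first WT untreated library 8 were higher and 6 lower in WT U2OS cells. PFDN2, a subunit of the prefoldin chaperone, rose by 0.44 and 0.54 after recovery and by 0.48 in treated ID3-KO U2OS cells, and was at 0.19 in WT (adjusted p = 0.28), or 0.36 (adjusted p = 7.6e-10) without that library. VBP1, another prefoldin subunit, fell in all 4 comparisons, from -0.29 to -0.59. TBCEL, related to the tubulin cofactor E, fell by 0.36 and 0.51 after recovery, rose by 0.32 in ID3-KO U2OS cells and was at 0.20 in WT (adjusted p = 0.10).

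Of 20 tubulin modifying enzymes, 8 were higher and 6 lower in WT and 8 and 9 in ID3-KO U2OS cells, and 4 and 6 in recovered WT and 1 and 7 in recovered ID3-KO AID-DIvA cells. Without the first WT untreated library 8 were higher and 9 lower in WT U2OS cells. TTLL6 and TTLL7, which add glutamates to tubulin tails, rose from 1.37 to 8.46 CPM (2.64 ± 0.23, or 2.37 without that library) and from 6.75 to 13.2 CPM (0.97 ± 0.09) in WT U2OS cells. AGTPBP1, which removes glutamates from them, rose from 16.03 to 42.2 CPM (1.40 ± 0.10, adjusted p = 2.1e-05). In ID3-KO U2OS cells the 3 rose by 2.96, 1.08 and 1.27. After recovery TTLL6 was not called, TTLL7 fell by 0.28 and 0.45, and AGTPBP1 fell by 0.34 in ID3-KO cells (adjusted p = 0.043) and was at -0.16 in WT (adjusted p = 0.053), a difference that was not called (-0.18, adjusted p = 0.67).

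Of 37 microtubule-associated proteins, 18 were higher and 6 lower in WT and 20 and 10 in ID3-KO U2OS cells, and 9 and 13, and 10 and 13, after recovery, where 34 were tested. Without the first WT untreated library 23 were higher and 11 lower in WT U2OS cells. MAPT, which codes for tau, the protein that binds along axonal microtubules, rose from 3.22 to 60.9 CPM in WT U2OS cells (4.24 ± 0.08, adjusted p = 1.8e-07) and from 3.57 to 61.9 CPM in ID3-KO cells. After recovery it was still higher, at 6.39 against 2.73 CPM in WT and 9.54 against 2.48 CPM in ID3-KO AID-DIvA cells, and the rise was larger in ID3-KO cells by 0.70 ± 0.15 (adjusted p = 0.025). STMN2, a neuronal protein that binds tubulin dimers, was near 0.1 CPM untreated in U2OS cells and at 11.6 and 12.4 CPM treated, and STMN4 reached 19.1 and 25.2 CPM from under 0.1.

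Neuronal markers were higher in sum with mocetinostat in both experiments, whereas TUBB2A, TUBB3 and TTLL7 were lower in recovered AID-DIvA cells. The summed level of 7 such markers, STMN2 included, was 111 CPM in untreated and 228 CPM in treated WT U2OS cells. In ID3-KO U2OS cells it was 124 and 297 CPM. In AID-DIvA cells it was 111 untreated and 164 recovered in WT, and 121 and 207 in ID3-KO cells. The highest of the 7, NEFL, had a mean of 141 CPM over all libraries, and none had a mean below 1. NEFL alone went from 92.7 to 169.5 CPM in WT U2OS cells and so made up most of the sum. The summed level of 8 bone or mesenchymal markers was lower with mocetinostat, at 5228 against 3833 CPM in WT and 4537 against 3422 CPM in ID3-KO U2OS cells. COL1A1 (2351 to 1524 CPM in WT) and SPARC (1470.1 to 930.1 CPM) made up most of that fall, while FN1 (753 to 775 CPM) and CDH2 (125 to 152 CPM) did not go down in WT U2OS cells. Their part in the tubulin results was not tested.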

How the data were processed

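Stranded total RNA libraries had been sequenced in pairs of 100 bases. After alignment with STAR to hg19 (GRCh37) the authors deposited, per gene and library, featureCounts counts without normalization, from either strand and by strand, and TPM, of which the version named legacy was used. The versions of these tools are not given in the sources used here. The methods name GENCODE v29 lifted to GRCh37, while the gene identifiers carry older version numbers. Tests ran in edgeR 4.0.16 under R 4.3.3 (filterByExpr, TMM factors, quasi-likelihood fit with robust estimation); SE is the log2 change divided by the root of F. Pairwise comparisons used 6 libraries, interactions 12 and the difference between experiments 24. DESeq2 1.42.0, its size factors, other filters, reverse-strand counts, a replicate block, a joint fit and leaving out each library were alternatives. Functions were tested on simulated data. Figures were drawn with matplotlib 3.10.9. Total counts ran from 37878751 to 76906266 per library, and precision was taken from the spread between 3 replicates. All 10 genes were named in each comparison, with the 3 genes of each list with the largest mean absolute change over the treatment comparisons at a mean of at least 1 CPM, and 1 most alike gene per member. The members and lists were chosen with earlier results of these data known. PECAM1, the only endothelial marker listed, was not found under that name among the genes counted, so its level is not given.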

Additional observations from a re-analysis of the deposited data

Results flagged for a closer look

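The response of a tubulin gene differed between 2 groups, by a test of the difference itself, in 16 cases, all with an adjusted p below 0.05 by edgeR's quasi-likelihood test. In 1 case the genotypes differed: the U2OS response of TUBA1A was 0.48 higher in ID3-KO than in WT cells on the log2 scale.

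In the other 15 cases the AID-DIvA response after recovery differed from the U2OS response directly after treatment. In WT cells the AID-DIvA minus U2OS difference was -1.63 for TUBB2A, -0.99 for TUBB2B, -0.58 for TUBB3, -0.52 for TUBB4B, -0.41 for TUBA1A, -0.37 for TUBA4A, whose call was lost in 5 fits without 1 library (adjusted p up to 0.11), and 0.47 for TUBB. In ID3-KO cells it was -1.53 for TUBB2A, -0.62 for TUBB2B, -0.55 for TUBA1A, -0.49 for TUBB4B, -0.35 for TUBB3, 0.60 for TUBB, 0.26 for TUBA1B and 0.23 for TUBA1C. Stage and cell line cannot be told apart in these differences. Their sizes rest on the AID-DIvA titles, and for TUBB3 and TUBB4B so does the direction. Under the titles MAPT and STMN2 were higher with mocetinostat in both experiments, while TUBB2A and TTLL7 were higher in U2OS and lower in AID-DIvA cells. Single genes in groups of 3 were not searched for deviating samples.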

How the results depend on the processing

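DESeq2 and its size factors in edgeR left all 100 calls of the 10 genes in 10 comparisons as they were, in direction and in side of the threshold. With a log2 change beyond 1 required as well, 1 gene was called in WT and 1 in ID3-KO U2OS cells after treatment, 1 in each difference between experiments, and 0 in the other comparisons with a call.

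In untreated U2OS cells 1 gene in place of 2 was called between genotypes with no filter, with reverse-strand counts and with the replicate block, while 3 were called with the 4 groups of the line in 1 fit, TUBB6 at 0.29 (adjusted p = 0.033) among them. With no filter 1 was called in the AID-DIvA interaction. Without the filter the calls for TUBA1C (0.23, adjusted p = 0.10) and TUBB3 (-0.35, adjusted p = 0.077) in the ID3-KO difference between experiments were lost. TUBA1C also lost that call with at least 10 counts in every library (0.18) and on the reverse strand (0.23). The cause was not tested.

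Leaving out 1 library gave from 6 to 9 genes for WT and 8 to 10 for ID3-KO U2OS responses, 7 to 8 for both AID-DIvA responses, 1 to 3 and 1 to 9 for the untreated AID-DIvA and U2OS genotype differences, 0 to 0 and 0 to 9 for the AID-DIvA and U2OS interactions, and 6 to 7 and 6 to 8 for the WT and ID3-KO differences between experiments. Without ID3-KO untreated AID-DIvA replicate 2 or 3 the genotype count moved from 1 to 3 or 2. The 9 came without U2OS WT untreated replicate 1.

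Sign changes were confined to values near 0 that were not called in the comparison as reported. In the WT U2OS response TUBB3 was at 0.0088 on the reverse strand. In the AID-DIvA interaction TUBB was at 0.0062 with no filter, 0.0049 with at least 10 counts and 0.048 on the reverse strand, TUBB2A at 0.0083, 0.0062 and 0.0013, and TUBB6 at 0.00043 on the reverse strand. In the WT difference between experiments TUBA1B was at -0.0041 with no filter and -0.024 with at least 10 counts, TUBA1C at -0.024, -0.044 and, with the replicate block, -0.00016, and TUBB6 at -0.018 with at least 10 counts.

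With libraries left out, the WT U2OS response ranged from -0.094 to 0.020 for TUBB3, -0.029 to 0.20 for TUBB4B and -0.058 to 0.15 for TUBB6, and the ID3-KO AID-DIvA response from -0.069 to 0.0078 for TUBB2B and -0.028 to 0.069 for TUBB6. The untreated genotype difference ranged from -0.076 to 0.013 for TUBA1C and -0.036 to 0.048 for TUBA4A in AID-DIvA, and from -0.13 to 0.15 for TUBA4A and -0.021 to 0.073 for TUBB3 in U2OS cells. TUBA4A reached its 0.15 (adjusted p = 0.0011) without U2OS WT untreated replicate 1. The interaction ranged from -0.038 to 0.011 for TUBB, -0.061 to 0.035 for TUBB2A and -0.066 to 0.033 for TUBB6 in AID-DIvA cells, and from -0.26 to 0.027 for TUBA4A in U2OS cells. The WT difference between experiments ranged from -0.013 to 0.057 for TUBA1B, -0.049 to 0.055 for TUBA1C and -0.097 to 0.10 for TUBB6.

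With the replicate block the count of called genes was 8 and 8 in the WT and ID3-KO AID-DIvA responses, 6 and 8 in the U2OS responses, 1 and 1 in the genotype differences, 0 and 1 in the interactions and 7 and 8 in the differences between experiments. Correlations of same-numbered samples ranged from -0.46 to 0.35 and no comparison had all 3 above 0.1, so the numbers were not taken to pair the samples.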
